A study of Mus musculus with 8 samples.

Results

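Glycolysis and its regulation by hypoxia were followed in 39 genes, chosen by name, of the 30406 genes shared by all libraries: the glucose transporters, the enzymes from hexokinase to lactate dehydrogenase, the lactate transporters, the hypoxia-inducible factor Hif1a with its prolyl hydroxylases, a set of its known target genes and glycogen enzymes. Droplet-based single-cell RNA sequencing (10x Chromium, transcript 3' ends tagged with unique molecular identifiers, UMIs) was done on leukocytes sorted as CD45+ and not stained by a CD45 antibody given intravenously, from the brain, pia and dura of male C57BL/6 mice aged 10 to 16 weeks. The mice were wild type and either controls or had undergone transient middle cerebral artery occlusion (MCAO), a stroke model in which the artery was closed for 30 or 45 min, and were killed 24 h or 72 h later. Brain at 24 h had 2 libraries (replicates 1 and 2). The other 6 groups, which are the controls of the 3 tissues, brain at 72 h, and both pia and dura at 24 h, had 1 library each. Tissue was digested with collagenase, and brain cells were further enriched on Percoll. The study gives only a pooled number of animals per compartment and not the animals behind each library. P-values thus measure at most the spread that the fits described below leave between these libraries. Controls are named naive in one place of the study's text and sham operated in another and are called control here.

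Glycolysis splits glucose into pyruvate in the cytosol and yields ATP without oxygen, and lactate dehydrogenase turns the pyruvate into lactate, which leaves the cell through monocarboxylate transporters. When oxygen is short, prolyl hydroxylases no longer mark HIF-1alpha for degradation, and the factor switches on glucose transporters, most glycolytic enzymes and genes such as Vegfa, Bnip3 and P4ha1. Neutrophils depend on glycolysis for most of their energy, and macrophages and microglia raise it on inflammatory activation, also where oxygen is plentiful.

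The authors' 21 clusters of 32457 annotated cells were used as deposited: microglia (Micro_1, Micro_2, Micro_3, stress_Micro), CNS-associated macrophages (CAM_1, CAM_2), stroke-associated myeloid cells (SAMC), other macrophages (Macro_1, Macro_2), granulocytes (Granulo_1, Granulo_2), dendritic cells (mDC1, mDC2), mast cells (Mast), stress_Myeloid, proliferating cells (prolif_cells), B cells (Bc), T cells (Tc), gdTc, ILC2 and NK cells. Within each library the UMIs of a cluster were added up and expressed as counts per 1000000 UMIs (CPM), for sums of at least 30 cells, which left 112 sums. Library totals ranged from 6591898 to 20754181 UMIs. Of 33 marker genes, 32 had their highest mean level in the cluster they name, but 2 labels need care. The neutrophil markers (S100a8, S100a9, Retnlg, Csf3r and Hp) summed to between 144 and 4247 CPM in Granulo_1 and to between 125093 and 307126 CPM in Granulo_2. The border macrophage markers (Pf4, Lyve1 and Mrc1) summed in CAM_1 to 41.9 CPM in control brain. In replicate 1 of brain at 24 h they summed to 6.66 CPM, and in pia and dura to 3100.3 to 5075 CPM. CAM_1 of these 2 brain libraries and CAM_1 of the borders thus share a label but not these markers. Over all annotated cells the markers stood at 10.5 CPM in control brain and 8.02 CPM in replicate 1. They were higher in replicate 2 (72.6 CPM) and at 72 h (147 CPM), and the statement on CAM_1 does not extend to those libraries.

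Replicate 2 of brain at 24 h and the library of brain at 72 h stood apart from the other 6. Their files carry a shorter gene list and cell barcodes of another set. Erythrocyte genes summed to 569 and 364 CPM in them and were at 0 in control brain and in brain at 24 h replicate 1, and ribosomal protein genes took 12.5% and 16.5% of their UMIs against 3.2% to 9.86% elsewhere. Between 12 and 43 barcodes were shared by any 2 libraries of the same set, at most 0.995% of the smaller library, and 0 to 2 across sets. The control pia library carries brain in its title and pia in its other labels, and is treated as pia. Each comparison is given for all libraries and for the 6 libraries of the longer gene list, a choice made after the data had been seen.

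Hypoxia-inducible factors bind the letters ACGTG or GCGTG. The RefSeq promoter table (GRCm38.p6, 250 bases before to 50 bases after each transcript start) held 36 of the 39 genes, and 32 of these (88.9%) had either word on either strand in at least 1 promoter, against 46.7% of all genes in the table. Counted by promoter, the words stood in 42 of 54 (77.8%) of these genes and in 43.8% of all promoters of the same length. Slc2a3, Bnip3l and Ndrg1 were not matched. The 5 promoters below belong to the 4 genes that the comparisons turn on, with these words, read on either strand, in capitals. Pkm (chr9:59656326-59656625, + strand) has 2 promoters in the table, of which the first held none and the second (chr9:59656977-59657276, + strand) held 2. Slc16a3 (chr11:120948817-120949116, + strand) held 2, Hk2 (chr6:82774405-82774704, - strand) held 2 and P4ha1 (chr10:59323046-59323345, + strand) held 3.
Pkm, first promoter: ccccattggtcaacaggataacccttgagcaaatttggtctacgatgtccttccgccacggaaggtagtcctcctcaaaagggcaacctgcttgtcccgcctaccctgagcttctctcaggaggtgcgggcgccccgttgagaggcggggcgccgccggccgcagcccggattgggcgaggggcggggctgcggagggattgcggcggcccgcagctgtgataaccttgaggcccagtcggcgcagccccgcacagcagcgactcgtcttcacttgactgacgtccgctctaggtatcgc
Pkm, second promoter: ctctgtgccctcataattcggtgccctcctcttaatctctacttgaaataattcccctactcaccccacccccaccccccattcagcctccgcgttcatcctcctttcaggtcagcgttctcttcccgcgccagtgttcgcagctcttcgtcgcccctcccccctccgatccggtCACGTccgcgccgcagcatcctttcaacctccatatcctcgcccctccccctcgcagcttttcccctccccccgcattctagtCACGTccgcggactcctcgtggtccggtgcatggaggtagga
Slc16a3: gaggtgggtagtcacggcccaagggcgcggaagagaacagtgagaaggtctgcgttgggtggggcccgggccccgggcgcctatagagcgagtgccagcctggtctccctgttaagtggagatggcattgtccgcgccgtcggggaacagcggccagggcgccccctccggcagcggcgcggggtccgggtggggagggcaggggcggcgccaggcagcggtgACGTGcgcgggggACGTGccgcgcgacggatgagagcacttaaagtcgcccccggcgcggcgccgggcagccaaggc
Hk2: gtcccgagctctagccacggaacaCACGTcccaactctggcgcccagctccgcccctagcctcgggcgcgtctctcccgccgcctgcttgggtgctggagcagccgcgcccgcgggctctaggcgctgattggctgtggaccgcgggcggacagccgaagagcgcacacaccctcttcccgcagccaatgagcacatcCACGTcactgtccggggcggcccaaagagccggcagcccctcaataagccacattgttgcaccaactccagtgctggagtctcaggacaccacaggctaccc
P4ha1: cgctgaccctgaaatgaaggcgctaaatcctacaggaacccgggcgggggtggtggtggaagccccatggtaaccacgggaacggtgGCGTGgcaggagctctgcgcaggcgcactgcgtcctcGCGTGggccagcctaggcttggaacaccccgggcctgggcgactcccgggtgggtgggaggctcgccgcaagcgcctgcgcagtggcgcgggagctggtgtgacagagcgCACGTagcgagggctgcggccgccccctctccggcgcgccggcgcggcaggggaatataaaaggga
The words began 27 and 14 bases before the start of Slc16a3, and 163, 126 and 16 bases before that of P4ha1. In Hk2 they began 226 and 52 bases before the start, and in the second promoter of Pkm 75 bases before the start and at base 9 after it. A match is a description of these letters and was not tested for binding. The 39 genes include known HIF targets by choice. The genes in the table were not matched to them for base content or number of promoters, so these shares are descriptions too.

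The 39 genes together took 295898 UMIs, 0.449% of all, and 55.0% of these came from the 5 most counted genes, by UMIs not corrected for length. The mean over all sums reached 20 CPM for 28 genes, and 8 genes had few UMIs in all libraries together, down to 9 for Ak4. Levels in CPM are compared below between clusters and libraries for the same gene only, and clusters are ranked where at least 2 libraries held 30 of their cells. A cluster's sum cannot tell more transcripts per cell from more cells that carry the transcript.

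Glucose entry and phosphorylation were split between cell types. Slc2a3, the transporter with high affinity for glucose, reached 139 ± 75.5 CPM (SD, n = 6) in Granulo_2 over libraries, with NK cells next at 34.8 ± 25.7 CPM (SD, n = 6). It was detected in Granulo_2 of each library with that cluster, from 37.2 CPM in brain at 24 h replicate 1 to 262 CPM in replicate 2. The value of replicate 1 rests on fewer than 3 UMIs, which would be 55.8 CPM. Slc2a1, the widely expressed transporter, varied less between clusters, from 20.7 ± 14.8 CPM (SD, n = 4) in gdTc to 65.1 ± 10.9 CPM (SD, n = 2) in stress_Micro. Hk2, the inducible hexokinase at the outer mitochondrial membrane, was highest in microglia, with 503 ± 13.3 CPM (SD, n = 2) in stress_Micro and 252 ± 196 CPM (SD, n = 6) in Micro_2. Both sums of stress_Micro come from the libraries of the shorter gene list. In Micro_1 it stood at 181 CPM in control brain, 176 and 489 CPM in replicates 1 and 2 of brain at 24 h and 527 CPM at 72 h, while pia and dura held 55.5 to 109 CPM. These 2 libraries were also the highest in Micro_1 and Micro_2, and without them the mean of Micro_2 was 131 ± 53.2 CPM (SD, n = 4). Hk3, a hexokinase of myeloid cells, was instead highest in Granulo_2, at 113 ± 13.4 CPM (SD, n = 6), above SAMC at 63.6 ± 23.4 CPM (SD, n = 4), and averaged 1.38 CPM in Bc. For Hk1, the housekeeping form, Tc led with 47.2 ± 27.2 CPM (SD, n = 8) and ILC2 followed at 45.6 ± 23.0 CPM (SD, n = 5), within their spread.

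The middle of the pathway followed other lineages. Gpi1, which interconverts glucose and fructose phosphates, was 505 ± 108 CPM (SD, n = 6) in Granulo_2 and 236 ± 60.4 CPM (SD, n = 3) in prolif_cells, the next cluster. Pfkp, the platelet isoform of phosphofructokinase, reached 218 ± 122 CPM (SD, n = 6) in mDC1 and 209 ± 25.2 CPM (SD, n = 4) in gdTc, and 3.62 ± 5.17 CPM (SD, n = 6) in Micro_2. The liver isoform Pfkl did not follow it, with 106 ± 54.6 CPM (SD, n = 4) in gdTc and 93.2 ± 31.0 CPM (SD, n = 6) in Micro_2. Pfkfb3, which makes the activator of phosphofructokinase, was higher in microglia (128 ± 71.1 CPM (SD, n = 6) in Micro_3) than in Tc (9.64 CPM), its lowest cluster. In the 6 libraries of the longer gene list Micro_3 held 88.9 ± 20.7 CPM (SD, n = 4). CAM_1 was next at 77.6 ± 18.4 CPM (SD, n = 6), within their spread. Aldoa, the aldolase of most tissues, peaked in ILC2 at 1073 ± 430.5 CPM (SD, n = 5). Aldoc was near the counting floor in most clusters and is not ranked.

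The lower part of glycolysis, from Gapdh to pyruvate kinase, had its highest means in SAMC, Granulo_1, Granulo_2 and prolif_cells, of which Granulo_1 lacks the neutrophil markers as described above. Gapdh averaged 917 ± 463 CPM (SD, n = 4) in SAMC, 914 ± 494 CPM (SD, n = 3) in prolif_cells and 196 CPM in Bc. Pkm, which makes pyruvate and ATP in the last step, was 2502 and 1186 CPM in SAMC of brain at 24 h replicates 1 and 2, 1006 CPM at 72 h and 2041 CPM in pia at 24 h. The value of replicate 1 was thus above that of replicate 2, whereas control libraries held too few SAMC to be summed. Eno1 (enolase) led in Granulo_1 at 1138 ± 757 CPM (SD, n = 7) and Pgk1 in Granulo_2 at 243 ± 20.0 CPM (SD, n = 6), and neither led by more than the larger SD. Ldha, which makes lactate, was 2104 ± 94.5 CPM (SD, n = 2) in Mast and 1957 ± 966 CPM (SD, n = 5) in ILC2. In ILC2 it ranged from 1872 to 2795 CPM in the 4 pia and dura libraries. It was 335 CPM in brain at 72 h, the one brain library with enough of these cells. That library carries the shorter gene list, and its highest Ldha of any cluster summed was 429 CPM, in SAMC. Tissue and gene list cannot be told apart in this comparison. Slc16a3, the transporter that exports lactate, was 386 ± 142 CPM (SD, n = 6) in Granulo_2 and 198 ± 141 CPM (SD, n = 7) in Granulo_1, against 67.4 ± 25.3 CPM (SD, n = 6) in Micro_3. Its paralog Slc16a1 stayed at or under 46.7 CPM on average in every cluster summed.

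The HIF side had its own maxima, most of them outside Granulo_1 and Granulo_2. Hif1a averaged 224 ± 184 CPM (SD, n = 7) in Granulo_1, with 390 and 544 CPM in replicate 2 and at 72 h. In the 6 libraries of the longer gene list it averaged 127 ± 81.3 CPM (SD, n = 5) there. Macro_1, which had enough cells only in brain at 72 h, held 386 CPM of Hif1a and 140.4 CPM of Vegfa. Granulo_1 of the same library held more of both, 544 and 158 CPM. The HIF hydroxylase Egln3 was highest in gdTc at 46.1 ± 20.0 CPM (SD, n = 4), ahead of ILC2 at 24.9 ± 16.2 CPM (SD, n = 5). It held 3 or fewer UMIs in 89 of the 112 sums. In gdTc the value of pia at 24 h (63.6 CPM) rests on 3 UMIs. That of brain at 72 h rests on fewer than 3, which would be 54.6 CPM. Vegfa, the endothelial growth factor, was 59.2 ± 27.9 CPM (SD, n = 6) in NK cells and 53.7 ± 58.5 CPM (SD, n = 7) in Granulo_1, where replicate 2 and 72 h held 114 and 158 CPM and the other libraries at most 36.8 CPM. P4ha1, a collagen prolyl hydroxylase subunit, averaged 137 ± 48.2 CPM (SD, n = 2) in stress_Micro, 132 ± 67.9 CPM (SD, n = 7) in Micro_1 and 6.90 CPM in Bc. Ddit4, which restrains mTOR signalling under stress, had its highest mean in Micro_1, 129.7 ± 74.5 CPM (SD, n = 7) and lowest in SAMC at 16.7 CPM. Ndrg1 was 507 CPM in Mast of control dura and 447 CPM in Mast of dura at 24 h, and 24.9 ± 9.58 CPM (SD, n = 6) in the next cluster, mDC2. Higd1a, a small mitochondrial protein, led in NK at 338 ± 188 CPM (SD, n = 6), with 113 and 93.3 CPM in replicate 2 and 72 h and at least 387 CPM in the other 4 libraries. For 7 of the 39 genes the highest cluster mean exceeded the next by more than the larger of their SDs (Slc2a3, Hk2, Hk3, Gpi1, Slc16a3, Egln3 and Ndrg1), and for the other 32 the 2 highest clusters did not differ beyond their spread. In the 6 libraries, which hold too few stress_Micro cells to sum, there were 8 such genes, without Hk2 and with Vegfa and Higd1a in NK cells.

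**Figure D1:**
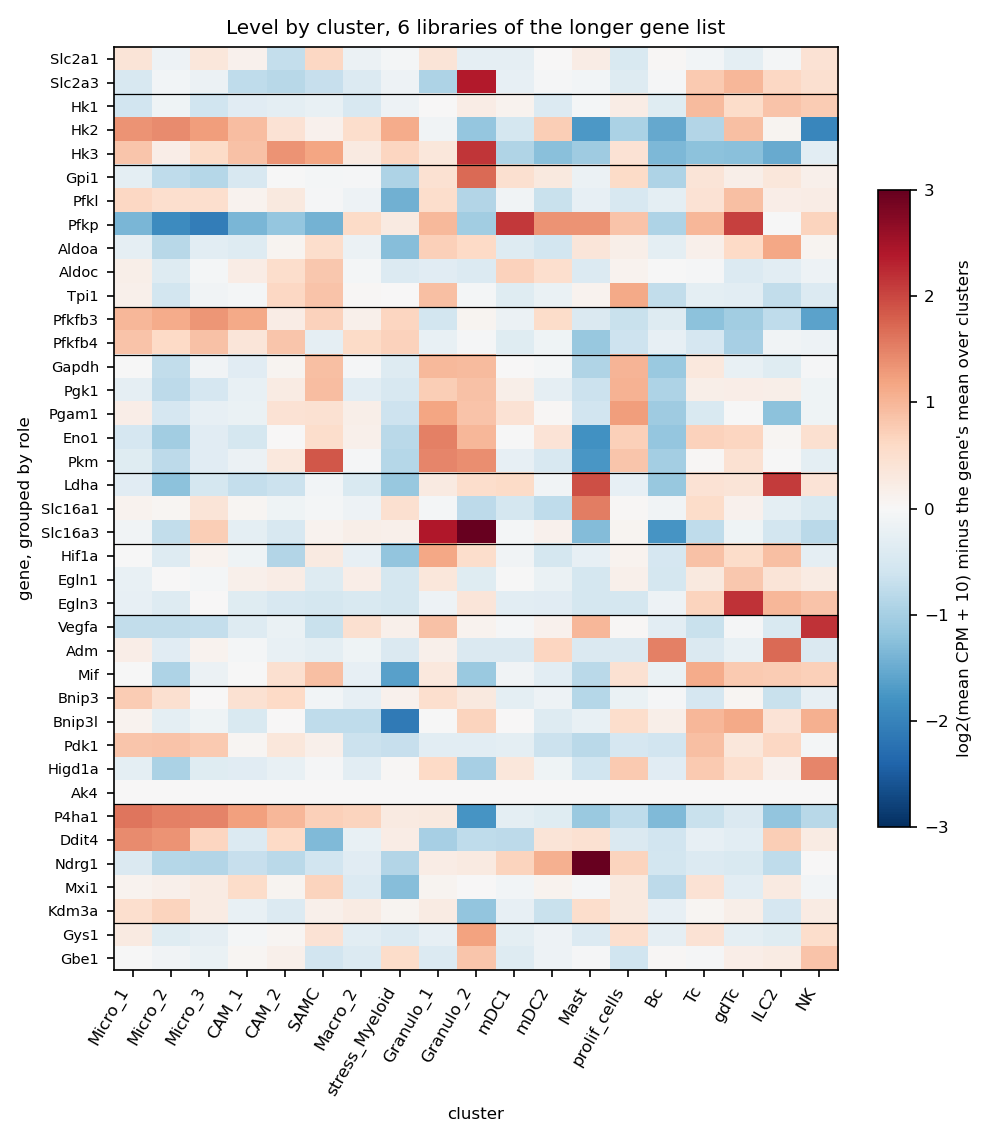
Mean level of each gene (rows, grouped by role and separated by lines) in each cluster (columns) over the 6 libraries of the longer gene list, as log2(mean CPM + 10) minus the gene's mean over clusters (color scale, log2). Granulo_2 stands out for Slc2a3, Hk3, Gpi1 and Slc16a3, Micro_1, Micro_2 and Micro_3 for Hk2 and P4ha1, Mast for Ndrg1, and ILC2 and Mast for Ldha.

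Set against the remaining annotated cells of its library, 16 of 747 pairs of a gene and a cluster were at least 2-fold higher in every library with the cluster and 29 at least 2-fold lower. Over all genes with at least 100 UMIs these shares were 2.66% and 3.12%. Granulo_2 had the most higher genes, 5 of 38, where 344 of all 11175 genes were higher and 772 lower. They were Slc2a3, Hk3, Gpi1, Slc16a3 and Gys1, the glycogen synthase of tissues other than liver, and P4ha1 was lower. Gys1 there rests on fewer than 3 UMIs in brain at 24 h replicate 1 and pia at 24 h, which would be 55.8 and 22.9 CPM. Mast had 3 higher and 6 lower of 32 (611 and 1255 of all 7873), and stress_Micro 2 and 5 of 37 (961 and 774 of 9787). Pfkp and Egln3 were higher in gdTc, where Hk3 and Pfkfb3 were lower. Egln3 there rests on 3 or fewer UMIs in pia at 24 h and in brain at 72 h. Hk2 and Pfkfb3 were lower in both Tc and NK cells than in the rest of their library, and Bc had less Hk3, Slc16a3 and P4ha1. The clusters were made from the same transcripts, so these folds carry no test.

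The mean of log2(CPM + 10) over the 39 genes served as a score. It was highest in Granulo_1, 0.35 ± 0.16 (SD, n = 7) above the mean over the clusters of the same library and above it in 7 of 7 libraries. Granulo_2 followed at 0.19 ± 0.14 (SD, n = 6). Macro_1 was at 0.32 in its only library, brain at 72 h. The lowest was Bc at -0.50 ± 0.21 (SD, n = 6), below the mean in 6 of 6 libraries. In Micro_1 the score itself ranged from 5.69 to 5.87 over 7 libraries.

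**Figure D2:**
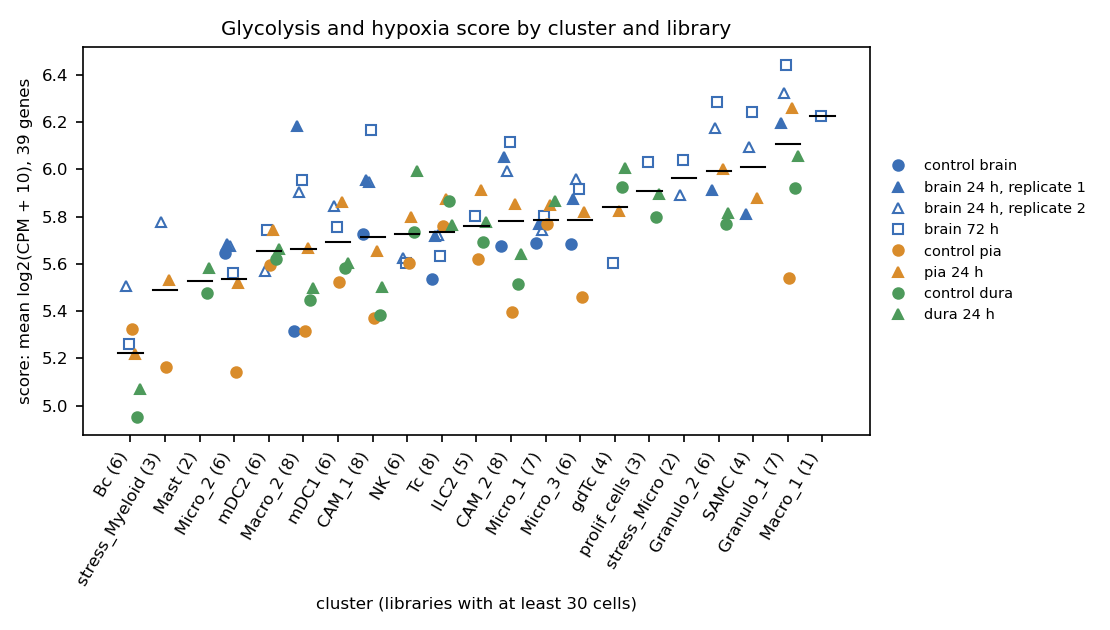
Score, the mean of log2(CPM + 10) over the 39 genes (y axis), in each cluster (x axis, with the number of libraries holding at least 30 of its cells), with 1 point per library and black bars for the mean over libraries. Bc has the lowest mean, Granulo_1 is the highest cluster in 5 of 7 libraries but not in control pia or control dura, and control libraries (circles) mostly lie under the libraries after MCAO.

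The 2 libraries of brain at 24 h, which carry the same label, differed in many of the 39 genes. Over the 10 clusters with at least 30 cells in both, Eno1 had a median log2 ratio of replicate 2 to replicate 1 of -2.34, Bnip3 of -2.38, Aldoa of -1.76, Ldha of -1.23 and Pkm of -1.07, and each was lower in replicate 2 in 10 of 10 clusters. Higd1a (-1.21) and Mif (-0.75) were too, as was Pfkl. Hk2 was higher in 10 of 10, by 1.08, and Hif1a in 9 of 10, by 1.57. Of the 28 genes with a mean of at least 20 CPM, 8 were lower in every cluster (28.6%) and 1 was higher (3.57%), while 16.9% of all 5836 genes at this level were lower in every cluster and 16.9% higher. Several glycolytic genes have near-identical processed pseudogenes, and whether the 2 gene lists split their reads differently was not tested.

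**Figure D3:**
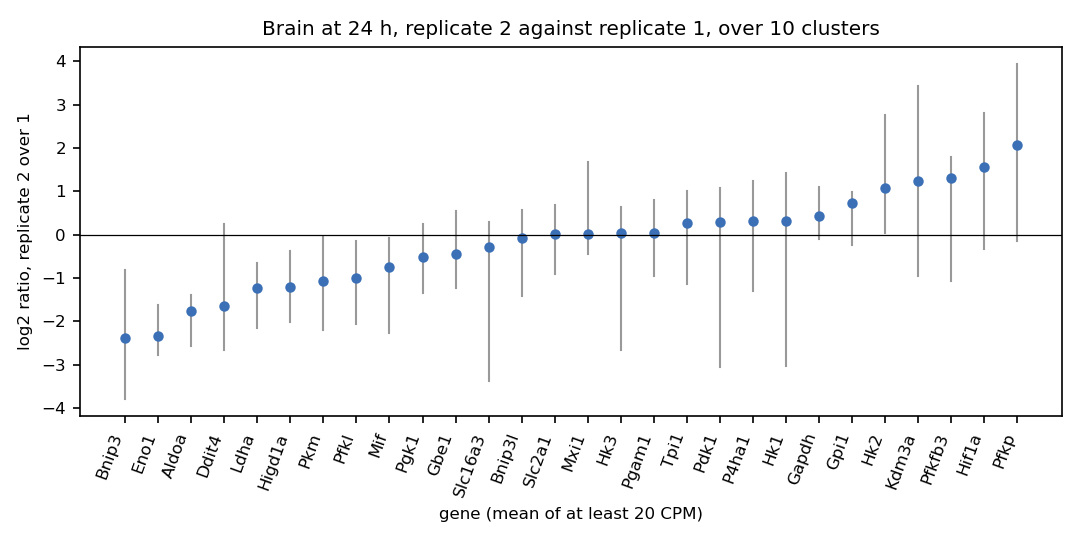
Log2 ratio of brain at 24 h replicate 2 to replicate 1 (y axis) for the 28 genes with a mean of at least 20 CPM (x axis), as the median (points) and the lowest and highest value (lines) over 10 clusters. Bnip3, Eno1 and Aldoa lie lowest, and Pfkp and Hif1a highest.

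At 24 h after MCAO most of the genes from glucose uptake to lactate export had levels above control in brain, pia and dura combined, and few passed the test. With all libraries, edgeR's quasi-likelihood test with tissue as a block, fitted in each of 8 clusters, called 0 of 249 pairs of a gene and a cluster higher or lower at an adjusted p under 0.05 and at least 2-fold. It called 0.0196% of all 61308 gene-cluster pairs. At an unadjusted p under 0.05 there were 18 pairs (7.23%, against 3.30% of all), and DESeq2 called 1, Pkm in CAM_1. In the 6 libraries of the longer gene list, edgeR called 9 pairs higher and 1 lower of 213, that is 4.23% and 0.469%, where 1.21% and 1.06% of all pairs were called higher and lower. At an unadjusted p under 0.05 there were 71 pairs, 33.3% against 15.5% of all. In these fits brain at 24 h is replicate 1 alone, each condition of a tissue is 1 library, and 1 or 2 residual degrees of freedom remain. Besides counting error, their p-values thus measure how far the change differs between tissues, and not a spread between replicate libraries of a group.

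Pkm was the gene called in most clusters by edgeR, and DESeq2 on the 6 libraries called it in CAM_1, CAM_2 and Macro_2 but not in Granulo_1. In CAM_1 it measured 197 CPM in control brain, 1528 and 724 CPM in replicates 1 and 2 of brain at 24 h and 752 CPM at 72 h. In pia it went from 189 CPM in control pia to 732 CPM in pia at 24 h, and in dura from 194 CPM in control dura to 398 CPM in dura at 24 h. Every library after MCAO was above every control library in this cluster. The 6 libraries gave a log2 fold change of 1.94, SE 0.29, adjusted p = 0.00343 (edgeR), called with any 1 of them left out and by DESeq2 (adjusted p = 8.44e-06), and all libraries gave 1.84 (SE 0.50, adjusted p = 0.933). In CAM_2 it stood at 346 CPM in control brain, 1823 and 729.9 CPM in replicates 1 and 2 of brain at 24 h and 790.5 CPM at 72 h, at 233 and 1190.1 CPM in control pia and pia at 24 h, and at 419 and 551 CPM in dura. The change in CAM_2 (log2 fold change 1.70, SE 0.32, adjusted p = 0.00836, edgeR) was not called without control pia or without pia at 24 h. Macro_2 held 291 CPM in control brain and 1604 CPM in replicate 1 but 346 CPM in replicate 2, with 238 and 740.4 CPM in pia and 275 and 429.9 CPM in dura (log2 fold change 1.38, SE 0.23, adjusted p = 0.000766, edgeR). Granulo_1, which had 5 cells in control brain and was not summed there, rose from 343 CPM in control pia to 2731 CPM in pia at 24 h and from 1225 CPM in control dura to 1752 CPM in dura at 24 h (log2 fold change 1.64, SE 0.41, adjusted p = 0.00495, edgeR), a call lost without brain at 24 h replicate 1. Tc did not share the pattern, with 719 CPM in control brain and 715 and 215 CPM in replicates 1 and 2.

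Slc16a3 was called in 3 clusters by edgeR in the 6 libraries, and DESeq2 on the same libraries called it in none of them. In CAM_1 its level was 23.6 CPM in control brain, 98.6 and 70.7 CPM in replicates 1 and 2 of brain at 24 h and 50.2 CPM at 72 h, 9.50 and 19.1 CPM in control pia and pia at 24 h, and 4.31 and 20.0 CPM in dura. Within each tissue the libraries after MCAO were above the control, although brain and border libraries did not share a range (log2 fold change 1.56, SE 0.34, adjusted p = 0.0153, edgeR on 6 libraries). All libraries gave 1.53 (SE 0.48, adjusted p = 0.933). Macro_2 had no Slc16a3 UMI in the 35 cells of control brain and held 114, 37.5 and 30.6 CPM in the 3 brain libraries after MCAO, while pia went from 14.6 CPM in control pia to 72.6 CPM in pia at 24 h and dura from 20.3 CPM in control dura to 41.0 CPM in dura at 24 h. The call (log2 fold change 1.77, SE 0.29, adjusted p = 5.27e-05, edgeR) was lost without control pia or pia at 24 h. In Granulo_1 it rose from 22.1 CPM in control pia to 388 CPM in pia at 24 h and from 178 CPM in control dura to 338 CPM in dura at 24 h (log2 fold change 1.91, SE 0.49, adjusted p = 0.00689, edgeR), again not without replicate 1. The values of control pia in Granulo_1 and of control dura in CAM_1 rest on fewer than 3 UMIs, which would be 33.2 and 6.47 CPM. Granulo_2, the cluster with the highest level, could be compared in dura only, at 281 CPM in control and 496 CPM at 24 h.

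Gapdh and Eno1 were called in 1 cluster each by edgeR, and of these DESeq2 on the 6 libraries called only Gapdh in CAM_1. Gapdh in CAM_1 measured 165 CPM in control brain, 532 and 653 CPM in replicates 1 and 2 of brain at 24 h and 1304 CPM at 72 h, with a rise from 170.2 CPM in control pia to 302 CPM in pia at 24 h and from 114 CPM in control dura to 204 CPM in dura at 24 h (log2 fold change 1.07, SE 0.21, adjusted p = 0.0109, edgeR), which was not called without control brain or without replicate 1. The brain value at 72 h was the highest of the 8 libraries. Eno1 in Macro_2 was 371 CPM in control brain, 1238 and 187 CPM in replicates 1 and 2 of brain at 24 h and 262 CPM at 72 h, 275 and 677 CPM in pia, and 331 and 448 CPM in dura (log2 fold change 1.02, SE 0.20, adjusted p = 0.000391, edgeR). Replicate 2 and 72 h thus lay below control brain, and the call held in 2 of the 6 fits with 1 library left out. Ldha passed the adjusted p but not the fold in CAM_1 (log2 fold change 0.97, SE 0.23, adjusted p = 0.021, edgeR), CAM_2 (0.97, adjusted p = 0.0217) and Macro_2 (0.95, adjusted p = 0.00202). In CAM_1 it was 189 CPM in control brain, 609.5 and 158 CPM in replicates 1 and 2 of brain at 24 h and 334 CPM at 72 h, 203 and 389.7 CPM in pia, and 244 and 329 CPM in dura, so that replicate 2 lay below all 3 controls.

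**Figure D4:**
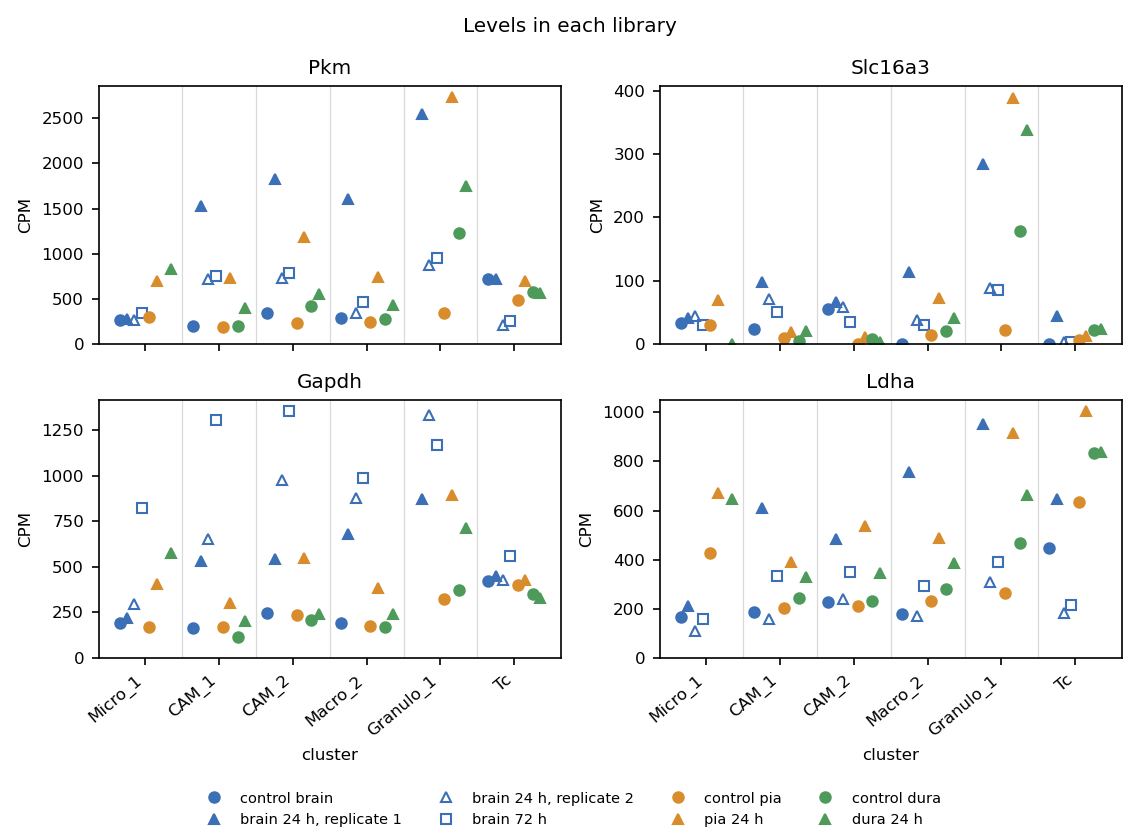
CPM (y axes, linear) of Pkm, Slc16a3, Gapdh and Ldha in 6 clusters (x axes), with 1 point per library with at least 30 cells, circles for controls, triangles for 24 h, squares for 72 h and open symbols for the 2 libraries of the shorter gene list. In CAM_1, CAM_2 and Macro_2 the triangles of Pkm lie above the circle of the same tissue, and brain at 24 h replicate 1 is the highest library.

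Taking all 8 clusters of the 6 libraries, Pkm, Ldha, Aldoa, Eno1, Mif and Higd1a had a log2 fold change above 0 in every cluster, with medians of 1.49, 0.88, 0.50, 0.52, 0.51 and 0.48. Brain at 24 h is replicate 1 alone in these fits, and each of these genes was lower in replicate 2 than in replicate 1 in 10 of 10 clusters. Slc16a3 was above 0 in 7 of 7 clusters (median 0.97), Pfkfb3 in 6 of 6 (0.32) and Slc2a1 in 6 of 7 (0.49). Hk3 was above 0 in 0 of 7 clusters (median -0.61), P4ha1 in 1 of 7 (-0.96), Bnip3 in 1 of 7 (-0.67), Pdk1 in 1 of 6 (-0.31) and Bnip3l in 1 of 8 (-0.29). Split by role into 2 groups, the first, from glucose to lactate, was mostly above 0, with exceptions. The second, of HIF, its hydroxylases, its targets and glycogen, had no common direction. The hexokinases of the first group were above 0 in 5 of 18 pairs, with a median of -0.21, and Mif and Higd1a of the second in 8 of 8 each. Of the pairs on the way from glucose to lactate, 105 of 132 (79.5%) were above 0, with a median log2 fold change of 0.38. Of those of HIF, its hydroxylases, its targets and glycogen, 34 of 81 (42.0%) were, with a median of -0.11, and 50.5% of all 47854 pairs were. With all libraries these shares were 79.1%, 46.5% and 55.8%, and with DESeq2 or scaling by library size alone on the 6 libraries they were 81.1% and 84.1% for the first group and 48.1% for the second. The clusters come from the same libraries and this split was made after the values had been seen, so the shares are descriptions.

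P4ha1, a target of HIF, was the 1 gene called lower at 24 h in the 6 libraries by edgeR, and DESeq2 did not call it. In Micro_2 it was 199 CPM in control brain, 67.0 and 146 CPM in replicates 1 and 2 of brain at 24 h and 119.6 CPM at 72 h, and 90.8 and 112 CPM in control pia and pia at 24 h. Brain after MCAO lay below control brain in 3 of 3 libraries and pia did not (log2 fold change -1.32, SE 0.30, adjusted p = 0.00274, edgeR on 6 libraries, 1 residual degree of freedom), and all libraries gave -0.64 (SE 0.74, adjusted p = 1.0). Without control brain the log2 fold change over all libraries was 0.30. Micro_1 (225 CPM in control brain, 101 and 193 CPM in replicates 1 and 2 of brain at 24 h and 106 CPM at 72 h) had a log2 fold change of -0.99 (SE 0.24, adjusted p = 0.00244, edgeR on 6 libraries), just under 2-fold. CAM_1 had one of -0.96 (SE 0.23, adjusted p = 0.0224). Bnip3, which tags mitochondria for removal, passed the adjusted p in Micro_1 at -0.995 (SE 0.28, adjusted p = 0.0189, edgeR), again under 2-fold, with 63.4 CPM in control brain, 42.6 and 6.89 CPM in replicates 1 and 2 of brain at 24 h and 33.5 CPM at 72 h. Hif1a itself, whose protein rather than transcript is set by oxygen, had a median log2 fold change of -0.06 over 7 clusters and reached 1.74 (SE 0.55, adjusted p = 0.0535, edgeR) in Granulo_1. Hif1a and Egln1 together were above 0 in 3 of 8 pairs in the 6 libraries (median -0.07) but in 13 of 16 with all libraries (median 0.85), which bring in replicate 2, where they were higher than in replicate 1 in 9 and 10 of 10 clusters.

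**Figure D5:**
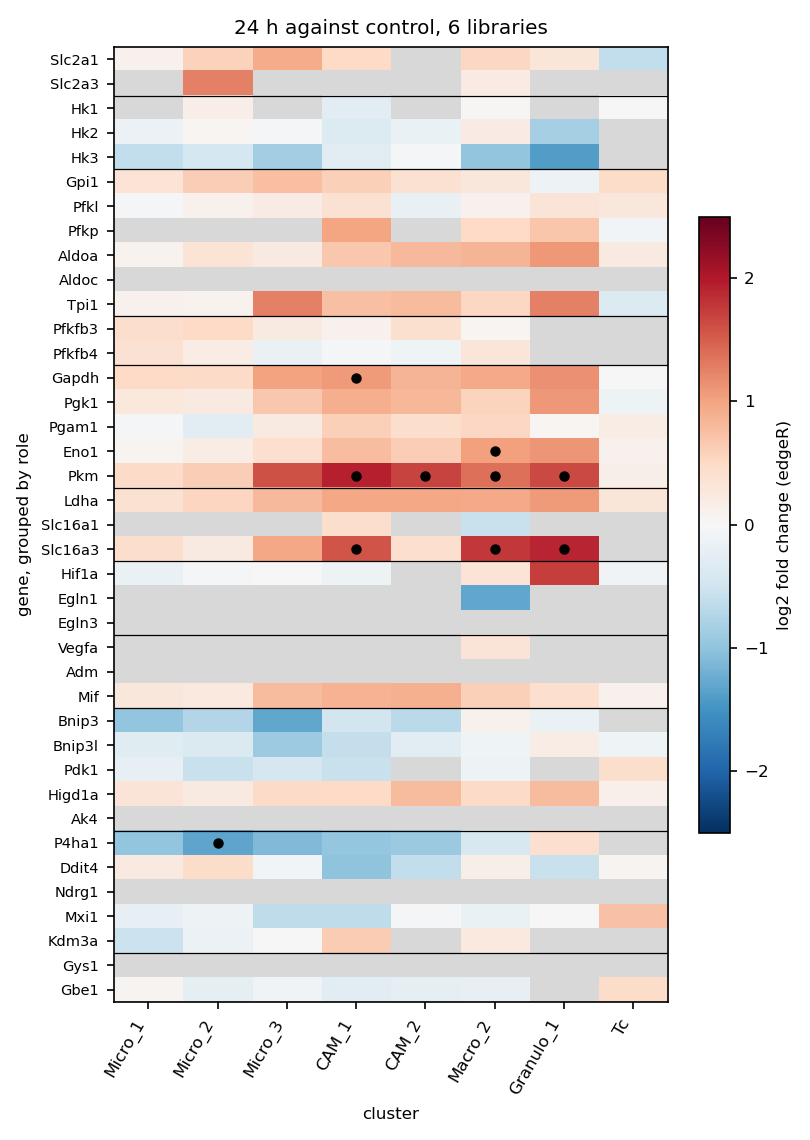
Log2 fold change at 24 h against control (color scale) of each gene (rows, grouped by role) in the 8 clusters fitted (columns), edgeR on the 6 libraries of the longer gene list, with gray for genes too low to test and dots for pairs called at an adjusted p under 0.05 and at least 2-fold. The 9 dots on red lie in the rows of Gapdh, Eno1, Pkm and Slc16a3, the 1 dot on blue is P4ha1 in Micro_2, and most cells of Hk3, Bnip3 and P4ha1 are blue.

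Other marker lists moved with the macrophage clusters at 24 h. In CAM_1 the SAMC markers Cd14, Spp1 and Lpl summed to 1048 CPM in control brain and 14829.9 and 5967 CPM in replicates 1 and 2, to 10614 and 13988 CPM in pia and to 8549 and 12754 CPM in dura. In Macro_2 they went from 2713 to 13389 CPM in brain (replicate 1). The 6 microglia markers in CAM_1 summed to 61281 CPM in control brain, 29881 and 13898 CPM at 24 h, and 7423 and 4309 CPM in pia. The 12 genes of dissociation and stress went there from 54909 CPM in control brain to 24222 CPM in replicate 1. The part of these differences between cells in the results above was not tested.

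As a mean over all 39 genes the change at 24 h was small. In brain the score was above control in 7 of 7 clusters, with a median difference of 0.19 in replicate 1 and 0.22 in replicate 2. But the mean of all genes of at least 20 CPM, on the same scale, differed by 0.11 and 0.23. The 39 genes moved further than this mean in 5 and 3 of 7 clusters. The cut at 20 CPM was not applied to the 39 genes, and it holds wherever all genes are set against the score. In pia it was above control in 13 of 14 clusters, by a median of 0.32 against 0.10 for all genes, with the larger difference in 14 of 14. In dura it was above control in 13 of 14, by 0.09 against 0.02, with the larger difference in 12 of 14. The largest differences were those of Macro_2 in brain, 0.87 in replicate 1 and 0.59 in replicate 2, and of Granulo_1 in pia, 0.72. All genes differed there by 0.30, 0.41 and 0.17. The control sums were small, with 35 cells of Macro_2 in control brain and 55 cells of Granulo_1 in control pia. In these sums 3 UMIs would be 48.4 and 33.2 CPM.

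Whether the change at 24 h in brain differed from that in pia and dura was tested in CAM_1, CAM_2, Macro_2 and Tc, with 1 residual degree of freedom. No pair of a gene and a cluster was called by edgeR or DESeq2, 0% of all 30361 pairs were called, and 0 members had an unadjusted p under 0.05 in either. For Pkm in CAM_1 the change in brain exceeded that in the borders by 0.83 on the log2 scale with an SE of 1.72, which is larger than a 2-fold difference between tissues.

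From 24 h to 72 h, which could be followed in brain only, none of the 39 genes passed the test in edgeR with all libraries, and most values depended on which library stood for 24 h. Brain at 72 h shares its gene list with replicate 2 and not with replicate 1. With both replicates, Hif1a and Egln1 had log2 fold changes above 0 in 16 of 16 pairs of a gene and a cluster (median 1.08) and Ldha and the lactate transporters in 2 of 21 (median -0.65), against 49.0% of all pairs. Against replicate 2 alone, a comparison added after the data had been seen, Ldha was instead above 0 in 13 of 15 clusters (median log2 ratio 0.33), Egln1 in 7 of 15 (-0.02) and Hif1a in 14 of 15 (0.36). Slc16a3 was above 0 in 5 of 15 (-0.36) and Vegfa in 12 of 15 (1.24). All libraries gave 0 calls with edgeR, against 0.0522% of all pairs, with 14 at an unadjusted p under 0.05 (5.62%, against 4.46% of all). DESeq2 called 1, Vegfa in CAM_1. Vegfa there was 0 CPM in control brain, 1.33 and 4.16 CPM in replicates 1 and 2 of brain at 24 h and 89.9 CPM at 72 h, and between 2.16 and 6.58 CPM in pia and dura. The value at 72 h was apart from the other 7 libraries (log2 fold change 5.83, SE 0.89, adjusted p = 0.0549, edgeR). In CAM_2 it was 11.8 CPM in replicate 2 and 57.5 CPM at 72 h, and in SAMC 0 and 39.1 CPM. Hif1a in CAM_2 was 5.09 CPM in control brain, 47.8 and 177 CPM in replicates 1 and 2 of brain at 24 h and 307 CPM at 72 h (log2 fold change of 72 h against 24 h 2.07, SE 0.75, adjusted p = 0.415, edgeR). The control value rests on fewer than 3 UMIs, which would be 15.3 CPM. Gapdh in Micro_1 was 294 CPM in replicate 2, the library of the same gene list, and 825 CPM at 72 h. Without brain at 24 h replicate 2, 35 of 241 pairs were called higher and 32 lower at 72 h (14.5% and 13.3%, against 15.3% and 11.2% of all), a comparison that sets libraries of different gene lists against each other, and 72 h is 1 library throughout.

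In the borders against brain, these genes were called lower about as often as all genes in the 6 libraries, and higher less often. With all libraries edgeR called 0 member pairs for pia against brain, where 0.944% of all pairs were called, with 15 at an unadjusted p under 0.05 (6.02%, against 9.40% of all), and 0 by DESeq2. It called 0 of 187 for dura against brain, where 1.26% were, with 25 at an unadjusted p under 0.05 (13.4%, against 12.5% of all), and DESeq2 called 1, P4ha1 lower in CAM_1. In the 6 libraries edgeR called 2 pairs higher and 12 lower of 213 for pia against brain (0.939% and 5.63%, against 5.83% and 4.06% of all) and 5 higher and 11 lower of 157 for dura against brain (3.18% and 7.01%, against 6.38% and 5.24%). The shares called lower were near those of all genes and the shares called higher were below them. CAM_1 and CAM_2 held 9 of the 14 calls for pia and 13 of the 16 for dura (64.3% and 81.2%), and 58.8% and 73.7% of the calls of all genes. For dura against pia it called 0 of 187 with all libraries (0.0292% of all, 3 at an unadjusted p under 0.05, against 2.30% of all) and 0 of 157 in the 6 libraries (1.91% of all, 19 at an unadjusted p under 0.05, 12.1% against 11.3% of all), and DESeq2 called 0 in both.

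Hk2, Slc16a3 and P4ha1 were lower in CAM_1 or CAM_2 of the borders than of brain in the 6 libraries, while Hk1, Hk3 and Slc16a1 were not called where they could be tested there. Hk2 in CAM_2 was 158 CPM in control brain, 104 and 129.5 CPM in replicates 1 and 2 of brain at 24 h and 151 CPM at 72 h, against 22.1 and 30.8 CPM in pia and at most 36.7 CPM in dura, and no brain library overlapped with a border library. The log2 fold change was -2.04, SE 0.41, adjusted p = 0.00173 in pia and -1.94, SE 0.47, adjusted p = 0.00609 in dura (edgeR on 6 libraries). All libraries gave -2.01 (SE 0.54, adjusted p = 0.0964) and -1.96 (SE 0.57, adjusted p = 0.111). P4ha1 in CAM_1 was 231 CPM in control brain, 109 and 196 CPM in replicates 1 and 2 of brain at 24 h and 75.2 CPM at 72 h, against 73.8 and 51.3 CPM in pia and 69.0 and 28.8 CPM in dura (log2 fold change -1.46, SE 0.30, adjusted p = 0.00154 for dura, edgeR on 6 libraries, called with any 1 of them left out). With all libraries this value was -1.59 (SE 0.46, adjusted p = 0.0971). Slc16a3 in CAM_2 was 35.3 to 66.5 CPM in the 4 brain libraries and 0 to 11.0 CPM in the 4 border libraries (log2 fold change -3.55, SE 0.86, adjusted p = 0.00632 for dura, edgeR on 6 libraries), a call lost without replicate 1 or dura at 24 h. Pfkl was called lower in CAM_1 and CAM_2 of dura, with log2 fold changes of -1.50 and -1.88, but replicate 2 held 29.4 CPM in CAM_2, within the range of dura. Pdk1 and Slc2a1 were called lower in CAM_1 of dura, and Hk2, P4ha1 and Ddit4 in CAM_1 of pia. DESeq2 on the 6 libraries also called Hk2 in CAM_2 of pia, and P4ha1 and Pfkl in CAM_1 of dura. It did not call Hk2, Slc16a3 or Pfkl in CAM_2 of dura.

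Fewer genes were higher in the borders. Pfkp in CAM_1 was 2.62 CPM in control brain, 2.00 and 16.6 CPM in replicates 1 and 2 of brain at 24 h and 31.3 CPM at 72 h, 7.31 and 13.6 CPM in pia and 8.62 and 23.8 CPM in dura. Its call (log2 fold change 3.50, SE 0.67, adjusted p = 0.00109 for dura, edgeR on 6 libraries) rests on control brain and replicate 1, since replicate 2 and 72 h held as much as the borders. These 2 values were at or under 3 UMIs, which is 7.86 CPM in control brain and 2.00 CPM in replicate 1. Ldha in Micro_1 was 168 CPM in control brain, 209.7 and 110.2 CPM in replicates 1 and 2 of brain at 24 h and 159 CPM at 72 h, against 427 and 670.0 CPM in pia and 647 CPM in dura at 24 h. The border libraries were all above those of brain (log2 fold change 1.53, SE 0.20, adjusted p = 6.92e-13 for pia, edgeR on 6 libraries, and 1.81 (SE 0.55, adjusted p = 0.677) with all libraries). Macrophage genes Lyz2 and Apoe summed in Micro_1 to 687 CPM in control brain and 28734 CPM in dura at 24 h, where the cluster had 36 cells. The microglia markers of CAM_2 summed to 85135 CPM in control brain and to 6892 to 10958 CPM in pia and dura, and the border macrophage markers to 15.3 CPM and 2547 to 4517 CPM. Tissue and this difference in cell make-up move together, and their part in the results was not tested.

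Of 45 further genes of the pathway, 0 of 159 pairs were called at 24 h with all libraries, also by DESeq2. In the 6 libraries 3 pairs were called higher and 3 lower of 122, where 1.21% and 1.06% of all pairs were. Bhlhe40, a repressor induced by hypoxia, was higher in Granulo_1 (log2 fold change 2.27, SE 0.62, adjusted p = 0.0126, edgeR) and Macro_2, and Hilpda, a lipid droplet protein, in Granulo_1. Slc2a5, a fructose transporter of microglia, was lower in CAM_1 (-2.55, SE 0.36, adjusted p = 0.00148, edgeR), CAM_2 and Micro_2. It was also lower in CAM_1 and CAM_2 of pia and dura against brain with all libraries (pia, CAM_1, -6.28, SE 0.98, adjusted p = 0.0166, edgeR), as was Ldhb, the other lactate dehydrogenase subunit, in the 6 libraries (pia, CAM_1, -3.53, SE 0.44, adjusted p = 0.000243). Bhlhe40 was higher in CAM_1 (4.29) and CAM_2 (3.31) and lower in Macro_2 (-1.58) of pia against brain in the 6 libraries. Hilpda was higher in CAM_1 of dura against brain with all libraries (2.73, SE 0.59, adjusted p = 0.0403, edgeR). For pia against brain 7 pairs were called higher and 14 lower of 122 in the 6 libraries (5.83% and 4.06% of all pairs were). For dura against brain 3 and 12 of 85 were called (6.38% and 5.24% of all), and for dura against pia 0 and 4 (1.91% of all in either direction).

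The genes whose level was most like the score over the 112 sums, by Pearson's r of log2(CPM + 10) among 5808 genes with a mean of at least 20 CPM, were Cotl1 (r = 0.72), Aprt (0.72), Tgm2 (0.67), Gsr (0.66), Fn1 (0.64), Rac1 (0.64), Psmd8 (0.64), Thbs1 (0.63), Tkt (0.62) and Pgd (0.61). Tkt and Pgd are enzymes of the pentose phosphate pathway, the branch that leaves glycolysis at glucose 6-phosphate. Over the 77 sums of the 6 libraries their r was 0.53 and 0.40 and that of Cotl1 was 0.71. The sums share libraries and depth, and the values are descriptions. Among the 39 genes, Gapdh (0.75), Pgk1 (0.66) and Pgam1 (0.63) followed the mean of the others most closely over the 112 sums, and Adm (-0.29) least.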

How the data were processed

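Single-cell libraries of leukocytes from brain, pia and dura were analysed from the deposited UMI counts, which the authors made with Cell Ranger 6.0 and the mm10 genome, with cluster labels from the deposited annotation. The authors' methods state that doublets were removed with scDblFinder, so only annotated cells were used and no caller was run here. Genes were matched by Ensembl ID, which left 30406 genes. Counts were summed per library and cluster (at least 30 cells) and scaled to CPM. The score is the mean of log2(CPM + 10). edgeR 4.0.16 (R 4.3.3; quasi-likelihood test, TMM scaling, low-count filter, Benjamini-Hochberg adjustment over all genes of a cluster) was fitted per cluster with tissue and condition as terms. Pairs were called at an adjusted p under 0.05 and at least 2-fold. DESeq2 1.42.0, other scaling, no filter and leaving out each library were alternatives. The 39 genes, the other lists and the tests were chosen with earlier results of these data known. By the rule for named genes, the 39 genes were all accounted for, and outside them the 10 genes most correlated with the score, further genes of a fixed pathway list and marker genes were named. Which of the 39 are described with full values was decided after the values were seen. On simulated data with 200 genes changed 4-fold, between 0% and 54.5% were recovered at 24 h, by cluster, and up to 16.9% of the calls were false. The simulation followed the fits of all libraries, so these rates do not describe the fits of the 6 libraries. Promoters were taken from RefSeq, build GRCm38.p6. The number of mice per library is not given in the sources used here. P-values cover counting error and the spread that tissue and condition leave between libraries. In the 6 libraries, where each group is 1 library, that spread is the difference in change between tissues.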

Additional observations from a re-analysis of the deposited data

Results flagged for a closer look

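In 3 cases the tissues moved in opposite directions at 24 h, and none of these differences was tested, since each tissue gave 1 or 2 libraries per condition. In Bc of pia the score at 24 h minus that of the control was -0.1, while it was 0.12 in dura. The mean of all genes of at least 20 CPM moved in the same directions in Bc, by -0.23 in pia and 0.12 in dura. In Tc of dura the score difference was -0.1, while it was 0.18 and 0.19 in brain replicates 1 and 2 and 0.11 in pia. All genes of at least 20 CPM in Tc differed by 0.01 in dura, 0.05 and 0.22 in brain replicates 1 and 2 and 0.03 in pia. P4ha1 in Micro_2 was 0.27 higher in pia at 24 h than in control pia on the log2(CPM + 10) scale. Both brain libraries at 24 h were below control brain. In Micro_2, 3 UMIs would be 38.9 CPM in control pia and 30.7 CPM in pia at 24 h.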

How the results depend on the processing

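The counts of calls depended most on the 2 libraries of the shorter gene list. At 24 h, 0 pairs were called with all libraries, 1 higher with DESeq2, 9 higher and 1 lower without these 2 libraries, and 14 higher and 1 lower with the gene list as a term. At 72 h the 0 calls became 1 higher with DESeq2, 3 higher without the low-count filter, and 13 higher and 4 lower with the gene list as a term. For pia against brain, higher calls were 2 without the 2 libraries and 4 with the term, and lower calls 1 with scaling by library size alone, 4 without the filter, 12 without the 2 libraries and 14 with the term. For dura against brain, higher calls were 1 without the filter, 5 without the 2 libraries and 5 with the term, and lower calls 1 with DESeq2, 1 with library size alone, 2 without the filter, 11 without the 2 libraries and 12 with the term. DESeq2 on the 6 libraries called 4 higher and 0 lower at 24 h, 1 higher and 2 lower for pia, and 2 higher and 6 lower for dura. The fits without these libraries and with the term were chosen after seeing the data. Most counts with DESeq2, with library size alone, without the filter, with the term or with 1 library left out stand without the share of all genes. They are not read as particular to these genes.

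Leaving out 1 of all libraries gave 0 to 14 higher and 0 to 1 lower at 24 h (14 without brain at 24 h replicate 2 and 6 without replicate 1). It gave 0 to 35 higher and 0 to 32 lower at 72 h, 0 to 5 and 0 to 13 for pia, and 0 to 9 and 0 to 12 for dura, each highest without one of the 2 brain libraries at 24 h. Leaving out 1 of the 6 libraries gave 4 to 19 higher and 0 to 1 lower at 24 h (19 without control dura or dura at 24 h, 4 without control pia or pia at 24 h), 0 to 5 and 2 to 9 for pia, 0 to 3 and 4 to 14 for dura, and 0 and 0 to 1 for dura against pia. Without control brain, P4ha1 in Micro_2 turned to 0.30 at 24 h (range -1.34 to 0.30) and Ddit4 in CAM_1 to 0.26 in dura against brain (range -1.20 to 0.26). Without brain at 24 h replicate 1, Ddit4 and Eno1 in Micro_2 turned to 0.12 (range -1.23 to 0.12) and 0.13 (range -1.04 to 0.13) in pia against brain. The causes were not tested. The score of Granulo_1 stayed at 0.32 to 0.40 and that of Bc at -0.57 to -0.47, and with a pseudocount of 1 CPM Bc was at -0.72. Pairs past the fold in every library were 38 higher and 44 lower of 747 at 1.5-fold, against 5.48% and 5.18% of all pairs. At 3-fold they were 7 and 8 of 747, against 1.08% and 1.55%. With sums of at least 10 cells they were 15 higher and 12 lower of 794, against 2.79% and 1.32%. With 1 library left out they were 12 to 22 higher and 24 to 39 lower, against 2.50% to 2.95% and 2.88% to 3.87% of all pairs. Keeping only the libraries that the study labels as version 2 kit changed no count of calls, but these labels do not follow the barcode sets, which set apart the 2 libraries of the shorter gene list. No paired analysis was possible because replicate numbers are shared by 1 library per group only and pair no animals. On simulated data between 0% and 54.5% of 4-fold changes were recovered at 24 h, by cluster, so an absent call does not show an unchanged gene. False calls there made up as much as 16.9% of the calls of a cluster at 24 h and 33.3% at 72 h. For pia and dura against brain the highest shares were 15.8% and 25%, so a call can be false as well. The simulation followed the fits of all libraries. Its rates do not describe the fits without the 2 libraries of the shorter gene list, where most of the calls were made.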
